A study of Mus musculus with 48 samples.

Results

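The transcripts of 10 mouse genes were followed in liver, 6 coding for S100 proteins (S100a10, S100a11, S100a6, S100a4, S100a1 and S100a13) and 4 coding for annexins (Anxa1, Anxa2, Anxa3 and Anxa5). They were matched by symbol to rows of a count table with 55414 genes. The set had been chosen from the low level of S100a10 after gonadectomy (GDX) in these same mice, so the differences between GDX and Intact mice are given as a description, without a test. Of the 10 genes, 9 passed the filter on low counts, as did 15414 genes in all, and S100a4 did not. Steatosis itself was not among the values in the table.

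The livers came from 48 mice of the FCG (4 core genotypes) model, and each of the 8 groups had 6 mice. In this model Sry, the testis-determining gene, is missing from the Y chromosome (written XY- in the labels) and is carried instead as an autosomal transgene (SryTg), so that gonad and sex chromosomes vary independently. The groups were XX with ovaries (XX Ov), XX;SryTg with testes (XX Te), XY- with ovaries (XY Ov) and XY-;SryTg with testes (XY Te), each either Intact or GDX. The transgene is present in every Te mouse and absent from every Ov mouse, and the Y chromosome is present in every XY mouse, so what these carry besides Sry cannot be told apart from the gonad or from the number of X chromosomes. All mice were on a C57BL/6 background and received a high-fat diet (HFD) with 60% of calories from fat from 15 to 17 weeks of age. GDX was performed at day 75. Per the labels, Intact mice received the HFD for 11 weeks and GDX mice for 15 weeks, so that surgery, time on diet and age are bound together wherever GDX mice are set against Intact ones and cannot be told apart. All 8 groups received the HFD.

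S100 proteins are small proteins with a pair of EF-hand motifs, most of which bind calcium and then expose a surface that grips a partner. Annexins bind membranes rich in acidic phospholipids when calcium rises, through a folded core of repeated units, and their short N-terminal tails dock S100 proteins. S100A10 is unusual because it has lost calcium binding and stays in an active shape. It pairs with annexin A2 at the plasma membrane, where the complex binds plasminogen and tissue plasminogen activator, and S100A10 protein is known to be unstable without annexin A2. S100A11 docks annexin A1 in the same manner. In liver, hepatocytes, Kupffer cells, recruited macrophages, stellate cells, endothelial cells and duct cells each express some of these genes, and in bulk tissue fewer cells of a type and less RNA per cell cannot be told apart.

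Promoter sequences are shown for S100a11, Anxa2 and Anxa5, 3 genes that do not neighbour each other in the genome and whose levels went together across mice (the correlations are given with the pairs of genes). RefSeq promoters of build GRCm38.p6 were at hand for 8 of the 10 genes, all except S100a10 and Anxa3. Each line gives the 250 bases before the start of the transcript, 5′ to 3′ on the strand of the gene. Capitals mark matches, searched on both strands, to 3 of the motifs described after the lines, and no match shares a base with another in these windows.
S100a11, chr3:93520246-93520495, plus strand: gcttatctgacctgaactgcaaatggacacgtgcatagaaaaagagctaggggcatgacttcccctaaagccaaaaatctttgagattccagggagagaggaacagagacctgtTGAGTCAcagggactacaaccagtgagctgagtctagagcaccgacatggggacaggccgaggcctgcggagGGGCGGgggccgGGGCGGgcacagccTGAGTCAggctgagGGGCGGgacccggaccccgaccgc
Anxa2, chr9:69453433-69453682, plus strand: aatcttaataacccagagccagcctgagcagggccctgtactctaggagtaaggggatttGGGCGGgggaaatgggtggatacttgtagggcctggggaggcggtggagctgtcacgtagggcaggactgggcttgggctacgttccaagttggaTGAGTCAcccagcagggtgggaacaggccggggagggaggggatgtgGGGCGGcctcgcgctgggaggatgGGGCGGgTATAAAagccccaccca
Anxa5, chr3:36475888-36476137, minus strand: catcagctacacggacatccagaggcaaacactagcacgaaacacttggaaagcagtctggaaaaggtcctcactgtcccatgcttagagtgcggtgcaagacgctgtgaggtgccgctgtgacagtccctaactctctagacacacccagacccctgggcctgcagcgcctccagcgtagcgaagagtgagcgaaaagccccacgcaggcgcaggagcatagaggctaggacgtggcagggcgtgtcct
The GC box was searched as GGGCGG, and 32.7% of 32851 promoters of the same length held it. S100a11 had GC boxes beginning 64, 52 and 24 bases before the start, and Anxa2 at 190, 48 and 24 bases. The AP-1 site, bound by Fos and Jun proteins, was searched as TGANTCA, and 6.75% of all promoters held it. S100a11 had AP-1 sites at 136 and 38 bases and Anxa2 at 95 bases before the start. The TATA box was searched as TATAAA, present in 12.4% of all promoters, and Anxa2 had it at 17 bases. The CCAAT box was searched by these 5 letters, present in 33.8%. Anxa5 had none of the 6 motifs in its window. The palindromic estrogen response element, present in 0.0639% of all promoters, and the palindromic androgen and glucocorticoid response element, present in 0.00913%, were in none of the 8 windows. S100a6 had a CCAAT box, S100a4 and Anxa1 a TATA box, and S100a1 and S100a13 none of the 6 motifs. In the same assembly all 6 S100 genes lie on chromosome 3, and S100a11 and S100a10 are close neighbours. S100a1 and S100a13 are head to head, and their annotated spans overlap by 98 bases. The window searched for S100a13 precedes a start that lies inside this span, so part of that window is within the annotated gene. Since the strand setting of the counts is not given in the sources used here, reads from the overlap of S100a1 and S100a13 cannot be assigned to either with certainty. A match is a description of letters and not of a bound site.

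Each mouse had 13071874 to 20045141 reads on genes. A floor of 3 reads was worth 0.150 to 0.230 CPM (reads scaled to a common library size on genes) and covers the error of counting alone. Xist and 4 Y-linked genes fitted the chromosome label of every mouse. Summed hepatocyte markers (5 genes, Alb among them) ranged from 58680 to 136900 CPM, so the liver label held, and of 4 adipocyte markers Adipoq, Plin1 and Lep had a median of 0, while Cfd reached 35.9 CPM in 1 mouse. Intact and GDX libraries stood apart in the share of reads outside annotated genes, while their ranges overlapped in the other processing measures. Reads outside annotated genes made up 3.47% to 6.20% of Intact and 8.52% to 11.3% of GDX libraries. A length index, the mean log2 CPM of 451 genes with transcripts up to 1000 nt minus that of 4328 genes from 3000 nt, ranged from -0.43 to 2.06 in Intact mice and from -0.53 to -0.06 in GDX mice. S100 transcripts are short (498 to 719 nt for the 6 genes), and annexin transcripts are longer (1447 to 1678 nt), so many values are also given with length offsets, which remove from each mouse its own curve of expression on transcript length. These offsets were chosen after seeing the data.

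Levels below are CPM scaled by edgeR's trimmed mean of M-values (TMM CPM), and levels of different genes are compared only per kb of transcript. Per kb, S100a10 was the highest of the 10 genes, with a median of 154.5 TMM CPM per kb over the 48 mice, followed by S100a1 (98.4), Anxa5 (42.7), S100a13 (22.1), Anxa2 (15.7) and S100a11 (10.4). Anxa3 (4.90), Anxa1 (3.23) and S100a6 (2.94) were lower. S100a4, the fibroblast-specific protein that is also made by macrophages and binds non-muscle myosin, was at 0.121 TMM CPM per kb. It had 0 reads in 18 of 48 mice and at most 7 reads in any mouse. All 6 XX Te GDX mice were at 0, and XY Ov Intact mice had 1 to 7 reads. These counts straddle the 3-read floor, and no comparison of S100a4 was made.

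S100a10 (ENSMUSG00000041959) in Intact mice spanned a wide range within every group. In XX Ov Intact mice it was lowest at 108.6, with a median of 286.2 and a highest value of 472.5 TMM CPM (n = 6 in this and every group). In XX Te Intact mice the corresponding values were 130.6, 247.2 and 480.7 TMM CPM. In XY Ov Intact mice they were 129.6, 204.4 and 367.0 TMM CPM. The XX Ov Intact group held 3 mice between 108.6 and 133.2 TMM CPM and 3 between 439.2 and 472.5 TMM CPM, with none in between. In XY Te Intact mice S100a10 ranged from 58.8 through a median of 253.4 to 563.4 TMM CPM, which were the lowest and the highest of all Intact mice. Every pair of Intact groups overlapped.

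After GDX every group was lower and narrower. S100a10 was 58.5, 87.4 and 111.1 TMM CPM (lowest, median and highest) in XX Ov GDX mice and 57.7, 75.8 and 103.0 in XX Te GDX mice. It was 30.0, 46.3 and 61.4 TMM CPM in XY Ov GDX mice and 30.1, 40.3 and 50.7 in XY Te GDX mice. Ordered by median, the 8 groups ran from XX Ov Intact through XY Te, XX Te and XY Ov Intact to XX Ov, XX Te, XY Ov and XY Te GDX, and the only neighbours in that order that did not overlap were XY Ov Intact and XX Ov GDX. Of 24 Intact mice, 22 lay above every GDX mouse, and the exceptions were XX Ov Intact replicate 4 at 108.6 and XY Te Intact replicate 5 at 58.8 TMM CPM. Of all tested genes, 0.856% had every GDX mouse below every Intact mouse, a stricter separation that S100a10 did not reach. The share of genes with 22 of 24 Intact mice above was not counted.

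**Figure D1:**
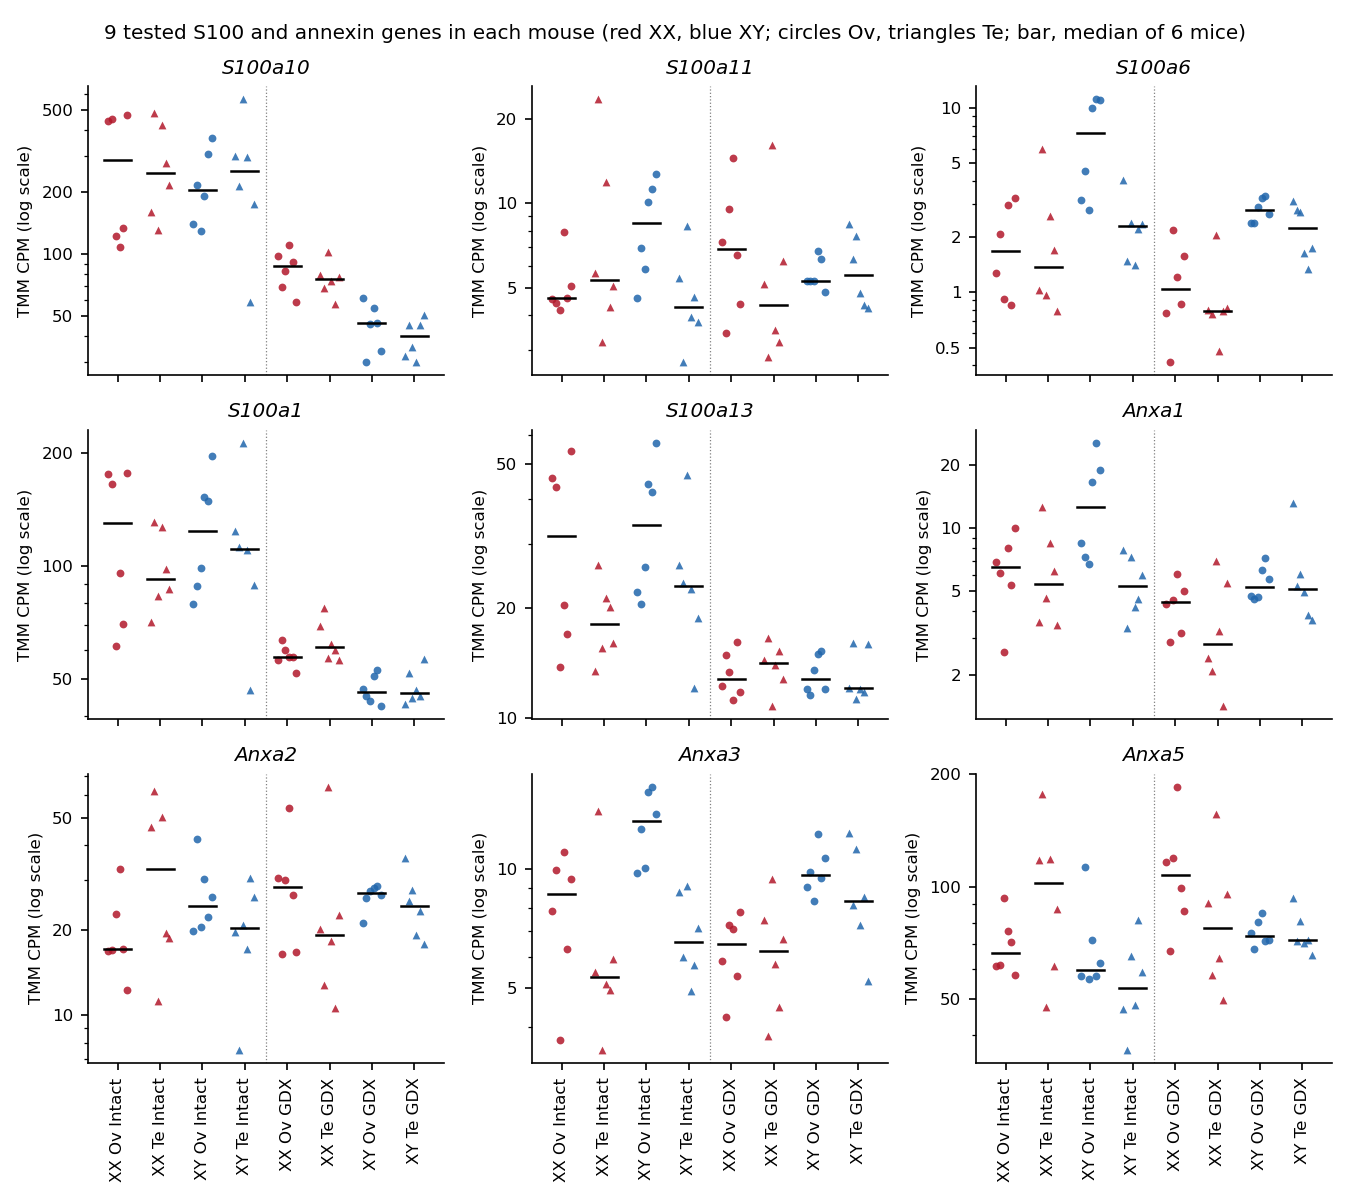
TMM CPM (log scale) of the 9 tested genes in each of the 48 mice, by group, with XX in red, XY in blue, Ov as circles, Te as triangles and the median of each 6 mice as a bar. S100a10 spans 58.8 to 563.4 TMM CPM in Intact mice and 30.0 to 111.1 in GDX mice, and among GDX mice the XX medians (87.4 and 75.8) lie above the XY medians (46.3 and 40.3).

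The fitted difference of S100a10 between GDX and Intact mice was -2.17 on the log2 scale (SE 0.19), and it was -2.03 (SE 0.26) for ovariectomy and -2.31 (SE 0.27) for castration. With length offsets the same differences were -1.38 (SE 0.12), -1.11 (SE 0.18) and -1.65 (SE 0.18). Genes of similar length were also lower after GDX. The median GDX difference of the 402 tested genes with transcripts of 501 to 750 nt was -0.88, and 9.95% of them lay lower than S100a10. In the castration difference 2.49% of that class lay lower, and in the ovariectomy difference 17.4%. The median difference was -0.65 over the 9 genes and 0.07 over all tested genes, and with length offsets -0.10 and 0.02.

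**Figure D2:**
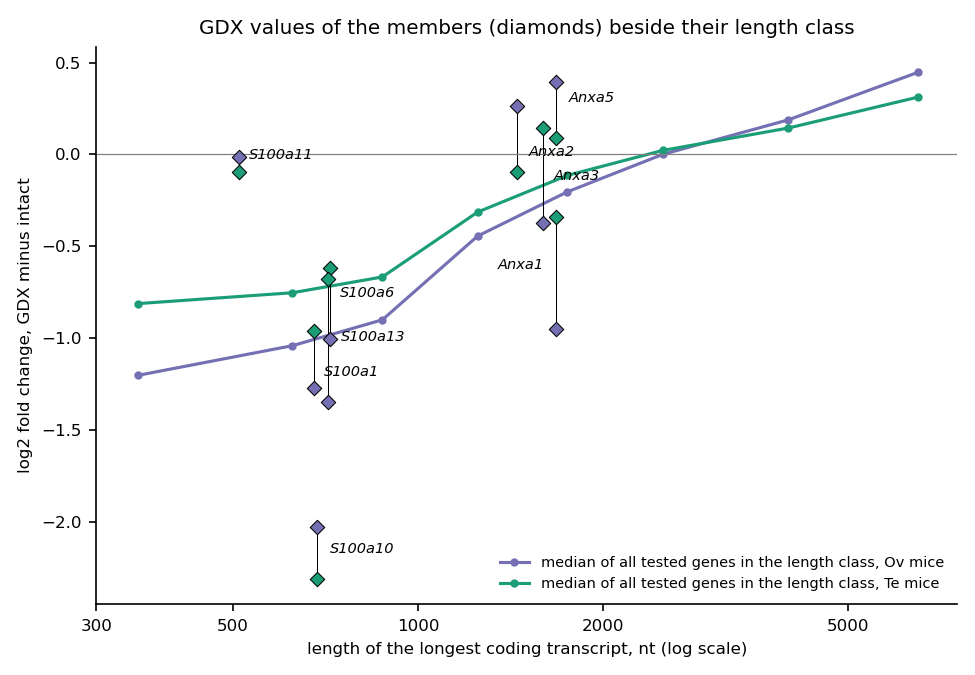
Log2 fold change of GDX against Intact mice plotted on the length of the longest coding transcript (nt, log scale), with lines joining the median of all tested genes in each length class for Ov and Te mice and diamonds for the 9 genes in the same colours. S100a10 lies at -2.03 in Ov and -2.31 in Te mice, below the medians of its length class at -1.04 and -0.75, S100a1 (-1.27 and -0.96), S100a13 (-1.35 and -0.68) and S100a6 (-1.01 and -0.62) lie near the medians of the same class, and S100a11 (-0.01 and -0.10) lies above them.

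S100a1, best known from heart and skeletal muscle, and S100a13, a carrier for the release of FGF1 and interleukin 1 alpha, had the GDX differences nearest to that of S100a10 among the 6 S100 genes chosen here. S100a16, outside that choice, was nearer still (its value is given with the other S100 genes). S100a1 was 46.7, 104.8 and 213.2 TMM CPM (lowest, median and highest) in the 24 Intact mice and 42.5, 54.7 and 77.4 in the 24 GDX mice. S100a13 was 12.04, 22.4 and 57.0 TMM CPM in Intact and 10.8, 13.04 and 16.5 in GDX mice. For S100a1 20, and for S100a13 19, of 24 Intact mice lay above every GDX mouse. Their GDX differences were -1.12 (SE 0.12) and -1.01 (SE 0.13), beside a median of -0.88 in their length class, and with length offsets they were -0.36 (SE 0.05) and -0.28 (SE 0.07).

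S100a6, or calcyclin, a growth-related protein first found in dividing fibroblasts, was low in these livers. It was 0.793, 2.36 and 11.1 TMM CPM in Intact mice and 0.416, 1.69 and 3.31 in GDX mice, with 7 to 177 reads per library. Its GDX difference was -0.81 (SE 0.21) and -0.10 (SE 0.18) with length offsets. S100a11 overlapped almost completely between Intact mice (2.72, 5.09 and 23.5 TMM CPM) and GDX mice (2.85, 5.31 and 16.1). Its difference was -0.06 (SE 0.19), in a length class whose median was -0.88, and with length offsets it was 0.74 (SE 0.18). The direction of S100a11 after GDX thus depends on the scaling, and no direction is given for it.

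Anxa2, the membrane partner of S100a10, did not share its pattern after GDX. Anxa2 was 7.55, 20.7 and 62.2 TMM CPM (lowest, median and highest) in Intact mice and 10.6, 25.7 and 64.3 in GDX mice. Its GDX difference was 0.08 (SE 0.18), and 0.34 (SE 0.18) with length offsets. Anxa5, the annexin that binds exposed phosphatidylserine on dying cells, was 36.6, 61.9 and 176.6 TMM CPM in Intact and 49.7, 77.9 and 184.8 in GDX mice, a difference of 0.24 (SE 0.12), and 0.43 (SE 0.12) with length offsets. Anxa3, an annexin abundant in neutrophils, was 3.497, 8.32 and 16.2 TMM CPM in Intact and 3.80, 7.63 and 12.4 in GDX mice, a difference of -0.12 (SE 0.12) that was 0.13 (SE 0.11) with length offsets. Anxa1, a glucocorticoid-induced annexin that limits leukocyte recruitment through formyl peptide receptors, was 2.57, 6.83 and 25.5 TMM CPM in Intact and 1.42, 4.73 and 13.3 in GDX mice, a difference of -0.65 (SE 0.18) and of -0.42 (SE 0.16) with length offsets. All annexin ranges overlapped between Intact and GDX mice.

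The gonadal effect in Intact mice, Ov against Te over both chromosome types, was not part of the rule that chose the genes and was tested. Higher levels with ovaries were found for 3 of 9 genes, and none was lower, beside 25.3% of all tested genes called in either direction and 14.1% called higher with ovaries. With length offsets 2 of 9 were called, beside 31.3% of all tested genes. S100a13 was 13.8, 34.0 and 57.0 TMM CPM (lowest, median and highest) in the 12 Ov Intact mice and 12.04, 20.8 and 46.5 in the 12 Te Intact mice. The S100a13 difference was 0.64 (SE 0.18, edgeR adjusted p = 0.0097), and 0.34 (SE 0.09, edgeR adjusted p = 0.0046) with length offsets. The groups overlapped, with 2 Ov mice above all Te mice. When the 24 Intact mice were fitted by themselves the difference was 0.63 and did not pass (edgeR adjusted p = 0.0790).

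Anxa3 was 3.71, 10.02 and 16.2 TMM CPM in Ov Intact and 3.497, 5.85 and 14.1 in Te Intact mice. The difference was 0.60 (SE 0.18, edgeR adjusted p = 0.0108), and 0.46 (SE 0.15, edgeR adjusted p = 0.0193) with length offsets. Anxa1 was 2.57, 7.66 and 25.5 TMM CPM in Ov Intact and 3.35, 5.28 and 12.7 in Te Intact mice. Its difference of 0.66 (SE 0.25, edgeR adjusted p = 0.0475) lay at the threshold and did not pass it with length offsets (0.51, SE 0.22, edgeR adjusted p = 0.0799) or in 29 of the 48 fits that left out 1 mouse, where the adjusted p reached 0.122. S100a10 differed by -0.11 between Ov and Te Intact mice (95% interval -0.62 to 0.40, edgeR adjusted p = 0.781), but by -0.50 with 1 surrogate variable in the fit (edgeR adjusted p = 0.0302). S100a6 was at 0.69 (SE 0.29, edgeR adjusted p = 0.0750), and it passed the threshold without XX Te Intact replicate 2 (1.01, edgeR adjusted p = 0.0051).

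Markers of some other cells differed in the same comparison, in which 14.1% of all tested genes were called higher with ovaries. Kupffer cell markers (7 genes measured, Clec4f and Vsig4 among them) summed to 335.7, 627.3 and 1127 TMM CPM in Ov Intact and 248.5, 354.7 and 811.5 in Te Intact mice, and 4 of 7 were called higher with ovaries (2 with length offsets). Lymphocyte markers (6 genes, Cd3e and Cd79a among them) summed to 1.77, 6.32 and 21.0 TMM CPM in Ov Intact and 1.41, 2.64 and 6.59 in Te Intact mice, with 5 of 6 called higher (5 with length offsets). No marker of either list was at 0 in all Ov or in all Te Intact mice. Of 8 markers of recruited macrophages 3 were called higher with ovaries (2 with length offsets), and of 6 tested neutrophil markers none was called. The median length index was 1.16 in Ov Intact and 0.849 in Te Intact mice. The part of these cells and of the index in the values of Anxa1, Anxa3 and S100a13 was not tested.

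After GDX no difference between Ov and Te mice was detected. None of the 9 genes was called by edgeR, none had an unadjusted p under 0.05, and DESeq2 called none. Over all tested genes 14 (0.0908%) were called by edgeR and 475 had an unadjusted p under 0.05. The difference of S100a10 was 0.17 (95% interval -0.34 to 0.69) and that of S100a13 was -0.04 (95% interval -0.41 to 0.34). Whether the gonadal difference was itself altered by GDX was tested as castration minus ovariectomy. None of the 9 genes was called (5.60% of all tested genes were), 2 had an unadjusted p under 0.05, and DESeq2 called none. Those 2 were S100a13 (0.67, SE 0.26, edgeR adjusted p = 0.116) and Anxa3 (0.52, SE 0.25, edgeR adjusted p = 0.201), which with length offsets were at 0.37 (SE 0.13, edgeR adjusted p = 0.0674) and 0.38 (SE 0.22, edgeR adjusted p = 0.274). For S100a10 the ovariectomy and castration differences stood 0.28 apart (-0.28, 95% interval -1.01 to 0.45).

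The chromosomal effect, XX against XY over gonads and gonadal status, was likewise not part of the rule that chose the genes. Earlier results of these data were known when they were chosen. The chromosomal effect was called for 5 of 9 genes beside 36.7% of all tested genes. S100a10 and Anxa5 were higher in XX mice (21.9% of all tested genes were), and S100a6, Anxa1 and Anxa3 were higher in XY mice (14.8% of all tested genes were). The S100a10 difference was 0.57 (SE 0.18, edgeR adjusted p = 0.0108), and 0.67 (SE 0.12, edgeR adjusted p = 1.56e-05) with length offsets. Without a filter on low counts it was 0.53 and did not pass (edgeR adjusted p = 0.0596). In GDX mice 10 of 12 XX mice were above every XY mouse, with 57.7, 78.5 and 111.1 TMM CPM (lowest, median and highest) in XX GDX and 30.0, 45.4 and 61.4 in XY GDX mice, a difference of 0.92 (SE 0.26, edgeR adjusted p = 0.0040). Of all tested genes, 2.52% had every XX GDX mouse above every XY GDX mouse, and 5.55% every one below. S100a10 overlapped and was in neither share. In Intact mice S100a10 was 108.6, 247.2 and 480.7 TMM CPM in XX and 58.8, 214.6 and 563.4 in XY mice, with a difference of 0.21 (95% interval -0.30 to 0.72, edgeR adjusted p = 0.662). The change in the chromosomal difference with GDX was 0.71 (SE 0.36, edgeR adjusted p = 0.377), so a different size of the chromosomal effect before and after GDX was not established. None of the 9 genes was called for that interaction (2.12% of all tested genes were), 1, S100a1, had an unadjusted p under 0.05, and DESeq2 called none.

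S100a6 showed the largest chromosomal difference of the 9 genes, in the opposite direction. In GDX mice it was 0.416, 0.808 and 2.17 TMM CPM (lowest, median and highest) with XX and from 1.34 through 2.7 to 3.31 with XY, and 9 of 12 XX mice lay below every XY mouse. In Intact mice it was 0.793, 1.48 and 5.98 TMM CPM with XX and 1.40, 2.97 and 11.1 with XY. The difference over all mice was -1.12 (SE 0.21, edgeR adjusted p = 3.84e-05), and -1.04 (SE 0.18, edgeR adjusted p = 6.98e-06) with length offsets. It was called in GDX mice (-1.24, SE 0.31, edgeR adjusted p = 0.0015) and in Intact mice (-1.001, SE 0.29, edgeR adjusted p = 0.0181), where leaving out XY Te Intact replicate 1 gave -0.88 with an edgeR adjusted p of 0.0513 and fitting the 24 Intact mice by themselves -1.03 with an edgeR adjusted p of 0.0871. Of all tested genes 34.3% were called in GDX mice and 10.7% in Intact mice, where S100a6 was the only one of the 9 genes called. Medians of 13 reads in XX GDX and 44.5 reads in XY GDX libraries stand behind these values.

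Anxa3 was 3.80, 6.26 and 9.46 TMM CPM in XX GDX and 5.22, 9.27 and 12.4 in XY GDX mice, a difference of -0.58 (SE 0.18, edgeR adjusted p = 0.0091), and over all mice it was -0.48 (SE 0.12, edgeR adjusted p = 0.0019). With length offsets the Anxa3 difference over all mice was -0.41 (SE 0.11, edgeR adjusted p = 0.0014), that of Anxa1 -0.43 (SE 0.16, edgeR adjusted p = 0.0246) and that of Anxa5 0.47 (SE 0.12, edgeR adjusted p = 0.0016). Anxa1 was at -0.50 over all mice (SE 0.18, edgeR adjusted p = 0.0250), which became -0.41 with an edgeR adjusted p of 0.0588 without XY Te GDX replicate 1. Anxa5 was 0.40 higher in XX mice (SE 0.12, edgeR adjusted p = 0.0076), with 49.7, 92.9 and 184.8 TMM CPM in XX GDX and 65.7, 72.0 and 93.0 in XY GDX mice. The XX mice were spread on both sides of the XY mice, 6 of 12 above and 3 of 12 below all of them. With library totals in place of TMM the Anxa5 difference over all mice was 0.31 and did not pass (edgeR adjusted p = 0.0953). Anxa2 differed by 0.12 (95% interval -0.24 to 0.48), S100a11 by 0.17 (95% interval -0.22 to 0.56) and S100a13 by -0.11 (95% interval -0.38 to 0.15). S100a1 was at 0.11 and was not called. It was called at 0.22 with length offsets (SE 0.05, edgeR adjusted p = 0.00024), a scaling under which 52.2% of tested genes were called. With 1 surrogate variable in the fit S100a1 was called as well, at 0.13 (edgeR adjusted p = 0.0411). The offsets also added calls for Anxa5 in Intact mice (0.50, SE 0.18, edgeR adjusted p = 0.0411, beside 18.8% of all tested genes) and for S100a1 and Anxa5 in GDX mice (0.37 and 0.44, beside 49.9%). With 1 surrogate variable S100a1 and Anxa5 passed in GDX mice too (0.23 and 0.42, edgeR adjusted p = 0.012 and 0.027). S100a1 also passed in a fit of GDX mice by themselves (0.30, edgeR adjusted p = 5.09e-05).

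**Figure D3:**
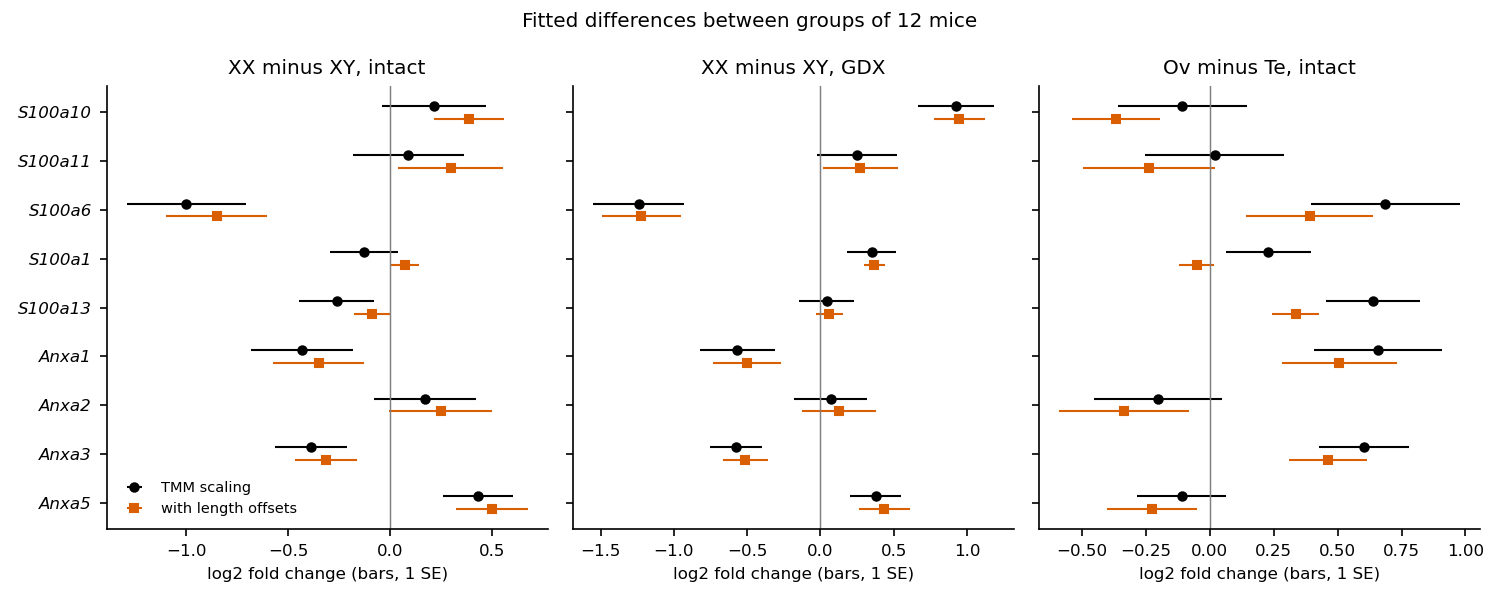
Fitted log2 fold changes (points, with bars of 1 SE) of the 9 tested genes for XX minus XY in Intact mice, XX minus XY in GDX mice and Ov minus Te in Intact mice, each between groups of 12 mice, with TMM scaling in black and with length offsets in orange. S100a10 lies at 0.21 in Intact and 0.92 in GDX mice and S100a6 at -1.001 and -1.24, and S100a13, Anxa1 and Anxa3 lie at 0.60 to 0.66 in the gonadal comparison.

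Macrophage and neutrophil markers differed with the chromosomes in the same mice. In this comparison 14.8% of all tested genes were called higher in XY and 21.9% higher in XX. Kupffer cell markers summed to 172.0, 337.9 and 811.5 TMM CPM in XX and 327.2, 755.5 and 1301 in XY mice, and 6 of 7 were called higher in XY. Markers of recruited macrophages (8 genes, Trem2, Gpnmb, Spp1 and Cd9 among them) summed to 36.6, 73.0 and 212.4 TMM CPM in XX and 53.0, 135.7 and 247.8 in XY mice, with 4 of 8 called higher in XY and 2 of 8 called higher in XX. Neutrophil markers summed to 1.30, 3.30 and 10.6 TMM CPM in XX and 2.80, 23.7 and 81.8 in XY mice, with 6 of 6 tested called higher in XY, and 1 of the 7 had 0 reads in every XX GDX mouse. Their part in the higher S100a6, Anxa1 and Anxa3 of XY mice was not tested. Hepatocyte markers, most of whose sum was Alb, summed to 58680 to 134800 in XX and 67770 to 136900 in XY mice, and none of 5 was called. With length offsets 2 of 5 were called higher in XX, beside 38.0% of all tested genes. In GDX mice 1 of 5 was called higher in XX without offsets, beside 34.3% of all tested genes called in either direction.

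Within Intact mice, the XY Ov group held the highest group median of S100a6, S100a11, S100a13, Anxa1 and Anxa3, and also of the sparse S100a4. S100a6 was 2.78, 7.29 and 11.1 TMM CPM in XY Ov Intact mice against medians of 1.36 to 2.28 in the other Intact groups. Anxa1 was 6.75, 12.6 and 25.5 TMM CPM against medians of 5.27 to 6.51. Whether the gonadal difference depended on the chromosomes in Intact mice was asked by a contrast chosen after these values were seen. The contrast, the XX gonadal difference minus the XY one, was -1.86 for S100a6 (SE 0.58), -1.64 for S100a11 (SE 0.55), -1.34 for Anxa1 (SE 0.50), -1.20 for Anxa2 (SE 0.50) and -0.84 for Anxa5 (SE 0.35). These 5 genes had an unadjusted p under 0.05, as did 989 of all tested genes, but 0 of all tested genes passed adjustment by edgeR. DESeq2 called none of the 9 genes and 2 genes in all, and the lowest adjusted p of the 9 genes was 0.450. With length offsets S100a6 was at -1.71 (SE 0.50), S100a11 at -1.45 (SE 0.52), Anxa1 at -1.29 (SE 0.45), Anxa2 at -1.10 (SE 0.51) and Anxa5 at -0.77 (SE 0.35), and none of the 9 genes was called. Markers of neutrophils, lymphocytes and recruited macrophages lay in the same direction. Their median contrast was -1.91 for neutrophils (6 of 6 negative), -1.22 for lymphocytes (6 of 6) and -1.06 for recruited macrophages (7 of 8), beside 0.08 over all tested genes. Most other marker lists did not share it, with medians of 0.04 for Kupffer cells (3 of 7 negative) and 0.03 for stellate cells (4 of 8). Medians were -0.06 for endothelial cells, 0.29 for hepatocytes, 0.36 for duct cells and 0.58 for mesothelial cells. Of the gene lists described further below, the lipid droplet genes had a median of -0.43 (7 of 9 negative). The median was -0.22 for binding partners and receptors (11 of 18), -1.27 for other S100 genes (2 of 4) and 0.04 for other annexins (2 of 6). The summed neutrophil markers had a median of 25.9 TMM CPM in XY Ov Intact mice and of 2.39 to 13.2 in the other Intact groups, and the summed markers of recruited macrophages 130.5 TMM CPM against 50.2 to 82.1. The part of these cells in the values of the XY Ov Intact group was not tested.

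The mice of a group differ among themselves, and their deviations from the group mean leave out the group differences that chose the genes. Per log2 unit of S100a10, S100a13 was higher by 0.57 (SE 0.06, edgeR adjusted p = 4.13e-10) and S100a1 by 0.54 (SE 0.05, edgeR adjusted p = 1.35e-11). S100a6 was higher by 0.46 (SE 0.15, edgeR adjusted p = 0.0096), S100a11 by 0.45 (SE 0.14, edgeR adjusted p = 0.0058), Anxa1 by 0.41 (SE 0.13, edgeR adjusted p = 0.0067) and Anxa3 by 0.26 (SE 0.09, edgeR adjusted p = 0.0141). Anxa3 did not pass without XX Te Intact replicate 2 (0.18, edgeR adjusted p = 0.0692). Thus 6 of 8 genes varied with S100a10, all positively, beside 57.0% of all tested genes in either direction and 28.6% with a positive slope. With length offsets 2 of 8 did, S100a1 (0.22, SE 0.05, edgeR adjusted p = 0.0011) and S100a13 (0.23, SE 0.07, edgeR adjusted p = 0.0096), beside 34.0% of all tested genes.

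The 2 genes that did not follow S100a10 were Anxa2, with a slope of 0.06 (SE 0.14, edgeR adjusted p = 0.744), and Anxa5, with a slope of 0.06 (SE 0.10, edgeR adjusted p = 0.638). With 1 surrogate variable in the fit both passed, Anxa2 with a slope of 0.98 (edgeR adjusted p = 1.56e-05) and Anxa5 with a slope of 0.73 (edgeR adjusted p = 3.66e-08), while S100a6, S100a13 and Anxa1 did not. Pearson's r of the deviations of S100a10 and Anxa2 was 0.09 over 48 mice (Spearman's rho 0.10, permutation p = 0.592 and 0.529), with -0.03 among Intact and 0.48 among GDX mice. These values rest on depths of 1177 to 9403 reads for S100a10 and 97 to 1217 reads for Anxa2 in Intact mice.

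S100a10 also deviated with the length index. Pearson's r was 0.851 over 48 mice (Spearman's rho 0.818, permutation p = 1e-05, the smallest that 100000 permutations can give, and r = 0.806 without the 2 mice farthest from the median index). It was 0.892 among Intact and 0.455 among GDX mice. Among the same GDX mice r of S100a10 was 0.48 with Anxa2 and 0.54 with Anxa5, and among Intact mice both were -0.03. For S100a1 and S100a13, r with the index was 0.974 and 0.952, for Anxa1, S100a6, Anxa3 and S100a11 it was between 0.287 and 0.503, and for Anxa2 and Anxa5 it was -0.17 and -0.23. What sets the length index was not tested.

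**Figure D4:**
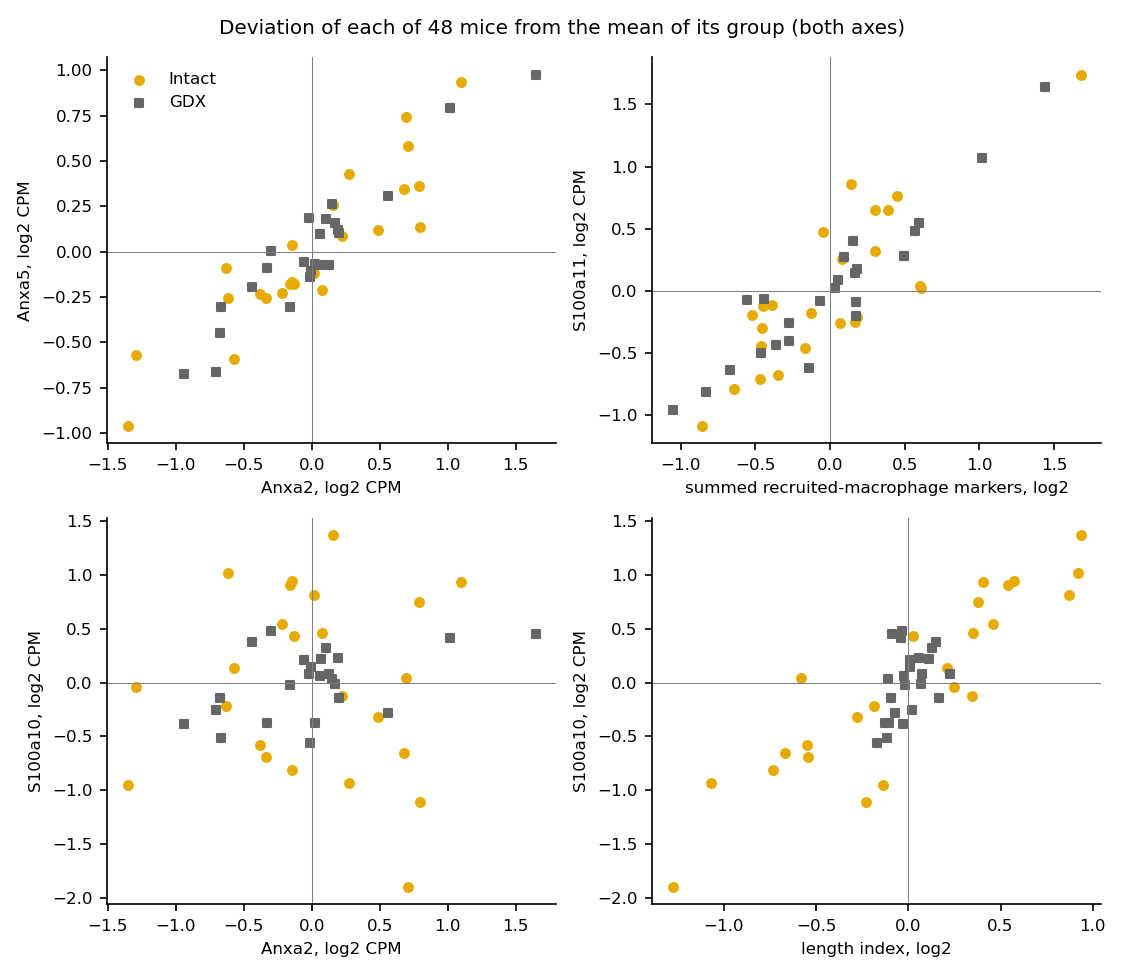
Deviation of each mouse from its group mean on the log2 scale, with Intact mice as circles and GDX mice as squares, for Anxa5 against Anxa2, S100a11 against summed markers of recruited macrophages, S100a10 against Anxa2, and S100a10 against the length index. Pearson's r is 0.918, 0.879, 0.09 and 0.851 in that order, and the GDX mice span a narrow part of the length index.

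The genes most like S100a10 were sought among 11528 genes whose log2 CPM averaged 1 or more. Over the levels of the 48 mice these were Mrpl16 (Pearson's r 0.979), a mitochondrial ribosomal protein, Gpx4 (0.976), a lipid hydroperoxide peroxidase, ENSMUSG00000110841 (0.976), Arpp19 (0.976) and Psmd8 (0.974), a proteasome subunit. Over deviations from group means they were Gpx4 (0.935), ENSMUSG00000110841 (0.933), Mrpl16 (0.931), Mrap (0.931) and Prdx3 (0.928), a mitochondrial peroxidase. Gpx4 led again over deviations with length offsets (0.846). These are correlations across mice that share library depth and length trend, and no p is attached to a ranking.

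Among the 36 pairs of the 9 genes, a family of relations chosen after seeing the data, 28 deviated together with an adjusted permutation p under 0.05, all of them positively, with r from 0.287 up. At or above that r lay 29 of the 36 pairs, beside 21.8% of all pairs of tested genes. With length offsets 17 of the 36 pairs did, beside 21.3% of all pairs. The closest pair was S100a1 and S100a13 (r = 0.958, rho 0.936, adjusted permutation p = 3.27e-05), whose genes overlap. It was 0.977 among Intact and 0.759 among GDX mice, and 0.791 with length offsets. Many other genes went as closely with these S100 genes. In closeness to S100a1, S100a13 had rank 48 among 15413 genes. In closeness to S100a10, S100a1 had rank 172 and S100a13 rank 697. The second closest pair was Anxa2 and Anxa5, on different chromosomes (r = 0.918, rho 0.902, adjusted permutation p = 3.27e-05), with 0.899 among Intact and 0.944 among GDX mice. It stayed at 0.918 with length offsets and was 0.891 without the 2 mice farthest from the median of Anxa2. Among 15413 genes, Anxa5 was the one that deviated most closely with Anxa2 (rank 1).

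S100a11 went with both annexins, with r = 0.798 for Anxa2 (rho 0.748) and 0.766 for Anxa5 (rho 0.678), each at an adjusted permutation p of 3.27e-05, and with length offsets these were 0.887 and 0.869. Among GDX mice they were 0.951 and 0.947. In XX Te GDX mice, replicate 3 was highest for all 3 genes (S100a11 at 16.1, Anxa2 at 64.3 and Anxa5 at 156.3 TMM CPM). In XX Te Intact mice, replicate 2 was highest for all 3 (23.5, 62.2 and 176.6 TMM CPM). A second set was formed by S100a6, Anxa1 and Anxa3, joined by S100a11, with r from 0.737 to 0.791 in its 6 pairs. S100a6 and Anxa1 were at 0.791 (rho 0.806), and S100a11 and Anxa1, the protein pair, at 0.747 (rho 0.763). Many of the weaker pairs depended on the scaling or on the cohort. With length offsets 11 of the 28 fell below an r of 0.287, among them S100a10 with S100a6 (0.414, and 0.019 with offsets) and with S100a11 (0.427, and 0.098 with offsets), and 4 became negative. Those 4 were S100a1 with S100a6 (-0.15), S100a11 (-0.24) and Anxa3 (-0.07), and S100a13 with S100a6 (-0.09). Among GDX mice 6 of the 28 were negative, all of them pairs of S100a1 or S100a13, such as S100a1 with Anxa3 (-0.57) and S100a13 with Anxa1 (-0.53). For S100a10 with S100a1 and S100a13, r was 0.917 and 0.889 among Intact mice but 0.272 and 0.089 among GDX mice. The pairs that did not pass were S100a10 with Anxa2 and Anxa5, S100a13 with Anxa3 and S100a11, and S100a1 and S100a13 with Anxa2 and Anxa5.

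**Figure D5:**
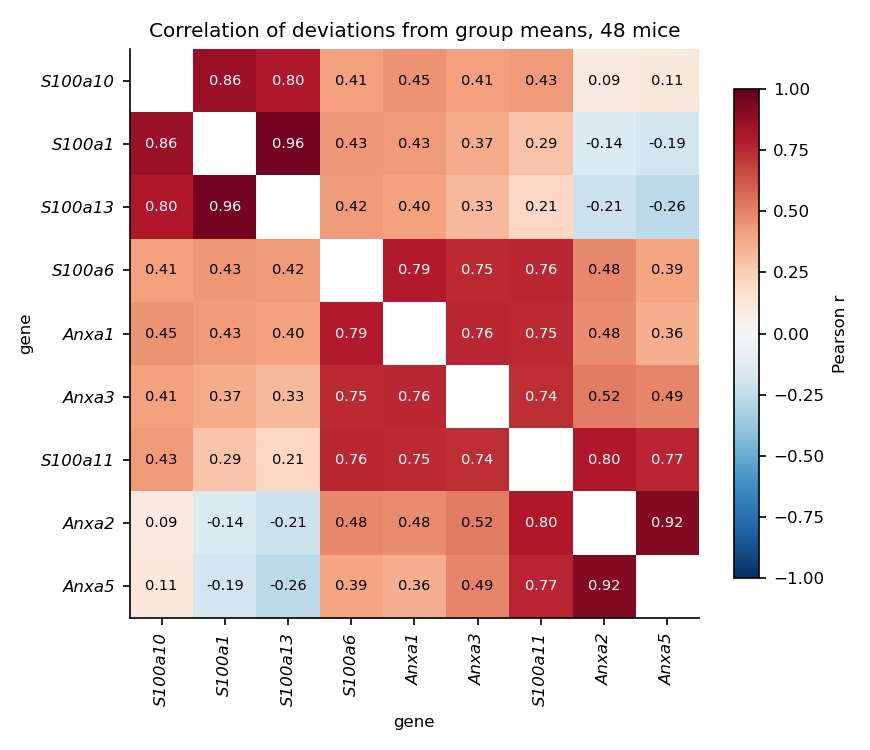
Pearson's r between deviations from group means for each pair of the 9 tested genes over 48 mice, on a colour scale from -1 to 1. S100a10, S100a1 and S100a13 form a block with r of 0.802 to 0.958, Anxa2, Anxa5 and S100a11 a block with r of 0.766 to 0.918, and S100a10 with Anxa2 is at 0.09.

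The deviations were also set against the summed levels of 9 marker lists and of the lipid droplet genes, 90 relations in all, likewise chosen after seeing the data, and 37 had an adjusted permutation p under 0.05, 34 of them positive. These 34, and none of the other relations, had an r of 0.419 or more, beside 6.72% of the relations of all genes with the same sums. With length offsets 30 of the 90 reached it, beside 5.60%. Of the 34, 5 fell below it with offsets, and 2 were negative among GDX mice, the lymphocyte markers with S100a1 (0.520 over all mice, -0.32 among GDX mice, 0.219 with offsets) and with S100a13 (0.498, -0.37 and 0.211). S100a11 went with the markers of recruited macrophages (r = 0.879, rho 0.808, adjusted permutation p = 6.43e-05), with 0.830 among Intact and 0.932 among GDX mice and 0.813 without the 2 mice farthest from the median, and it was 0.878 with length offsets. Among 15406 genes outside the list, S100a11 had the highest r with this sum (rank 1). Anxa5 (0.788), Anxa2 (0.778), S100a6 (0.754), Anxa3 (0.701) and Anxa1 (0.691) followed the same sum, and S100a10 (0.235, adjusted permutation p = 0.184), S100a1 (0.086) and S100a13 (0.048) did not pass.

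Over the 48 mice Anxa3 was closest to lymphocyte markers (r = 0.767, rho 0.728) and Kupffer cell markers (r = 0.744, rho 0.667). Anxa1 was closest to stellate cell and fibroblast markers (r = 0.760, rho 0.737). Each relation had an adjusted permutation p of 6.43e-05. The order depended on the scaling or the cohort. With length offsets Anxa3 was at 0.668 with lymphocyte and 0.708 with Kupffer cell markers. Among GDX mice these were 0.575 and 0.664, below recruited macrophages (0.781). Among Intact mice Anxa1 was at 0.719 with stellate and 0.734 with lymphocyte markers. The summed lipid droplet genes went with Anxa5 (r = 0.676, rho 0.574, adjusted permutation p = 6.43e-05), Anxa2 (0.622), S100a11 (0.564) and S100a10 (0.489, rho 0.6247, adjusted permutation p = 0.0071). For S100a10 this was the only positive relation of the 10 sums that passed, with r = 0.440 among Intact and 0.755 among GDX mice. With length offsets it was 0.621 for S100a10 and 0.411 to 0.517 for the other 3 genes. Endothelial markers went against S100a10 (-0.33), S100a1 (-0.40) and S100a13 (-0.36), the 3 negative relations that passed, and 10.4% of the relations of all genes with the 10 sums were as low. With length offsets they were -0.23, -0.33 and -0.20. No relation with the summed hepatocyte markers passed.

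The rest of the families was read from fixed lists. Of 10 other S100 genes, 4 passed the filter. In the GDX difference their median was -2.15 beside 0.07 over all tested genes, and with length offsets -1.30 beside 0.02. The median GDX difference of all tested genes was -0.99 in the length class of S100a8 and S100g, -0.88 in that of S100a9 and -0.36 in that of S100a16. S100a8, the neutrophil alarmin, was at -3.35 (SE 0.47), and -2.35 (SE 0.44) with length offsets. S100a16 was at -1.43 (SE 0.12), and -0.92 (SE 0.07) with length offsets. S100a16 was higher with ovaries in Intact mice (0.46, SE 0.17, edgeR adjusted p = 0.0411) but did not pass with length offsets (edgeR adjusted p = 0.0638). In the chromosomal effect 2 of 4 were called, both higher in XY mice, beside 14.8% of all tested genes, and length offsets added S100g, named after its values were seen, as higher in XX mice (0.86, SE 0.29, edgeR adjusted p = 0.0118). S100a8 was at -3.84 (SE 0.47, edgeR adjusted p = 5.89e-09), and its partner S100a9, named after its values were seen, at -3.80 (SE 0.45, edgeR adjusted p = 2.68e-09), beside the neutrophil markers above.

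Of 8 other annexins, 6 passed the filter, and 5 of these differed with the chromosomes. They were called higher in XX mice and none was lower, with a median of 0.31 beside 0.05 over all tested genes, of which 21.9% were called higher in XX. Anxa7 was at 0.30 (SE 0.04, edgeR adjusted p = 2.28e-07) and Anxa6, an annexin of endosomes and lipid handling, at 0.32 (SE 0.07, edgeR adjusted p = 0.00026), whereas Anxa9 did not pass (0.15, edgeR adjusted p = 0.252). With length offsets all 6 were called higher in XX, Anxa9 at 0.23 (edgeR adjusted p = 0.0477), beside 38.0% of all tested genes. In GDX mice all 6 tested were called higher in XX, Anxa9 included (0.40, edgeR adjusted p = 0.0225). Of all tested genes 34.3% were called there in either direction. In the GDX difference Anxa6 was at 0.72 (SE 0.07) and Anxa7 at -0.23 (SE 0.04). None of the 6 was called in the gonadal effect in Intact mice, where Anxa7 was at -0.11, and Anxa7 alone was called with length offsets (-0.17, SE 0.06, edgeR adjusted p = 0.0346).

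Of 18 genes for binding partners and receptors, all passed the filter. In the chromosomal effect 6 were called higher in XY and 2 higher in XX mice, beside 14.8% and 21.9% of all tested genes. With length offsets 7 were higher in XY and 4 in XX, beside 14.3% and 38.0%. Pla2g4a, the cytosolic phospholipase that annexin A1 restrains, was at -1.66 (SE 0.17, edgeR adjusted p = 3.25e-11). The formyl peptide receptor Fpr2, named after its values were seen, was at -3.59 (SE 0.28, edgeR adjusted p = 2.48e-14). In the gonadal effect in Intact mice 5 of 18 were higher and 1 lower with ovaries, beside 25.3% of all tested genes called in either direction, and with length offsets 2 were higher and 1 lower, beside 31.3%. Among them were Pla2g4a at 1.17 (SE 0.23, edgeR adjusted p = 0.00017) and Dlc1, a target of S100A10 binding, at -0.36 (SE 0.12, edgeR adjusted p = 0.0221). In the GDX difference Myh9, the non-muscle myosin bound by S100A4, was at 1.27 (SE 0.13) and Cacybp, the calcyclin-binding protein, at -0.97 (SE 0.08).

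Of 10 lipid droplet genes, all passed the filter and 9 had reads in every group. In the chromosomal effect 5 of the 9 were called higher in XX and 2 higher in XY mice, beside 21.9% and 14.8% of all tested genes. With length offsets 7 were higher in XX and 1 in XY, beside 38.0% and 14.3%. Cidec, a droplet fusion protein, was at 1.71 (SE 0.25, edgeR adjusted p = 4.43e-07) and Mogat1, an acyltransferase of triglyceride synthesis, at 1.57 (SE 0.19, edgeR adjusted p = 5.65e-09). Their sum was 693.1, 1189 and 1606 TMM CPM (lowest, median and highest) in XX and 443.2, 751.5 and 1201 in XY mice, in the direction of S100a10 and Anxa5. In the gonadal effect in Intact mice Cidec was lower with ovaries (-1.92, SE 0.36, edgeR adjusted p = 8.56e-05) and Vldlr, a lipoprotein receptor, higher (0.98, SE 0.16, edgeR adjusted p = 1.35e-05). In the GDX difference Plin4 was at 1.31 (SE 0.25) and Mogat1 at -1.31 (SE 0.19).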

How the data were processed

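Liver RNA of 48 mice was sequenced, 1 library per mouse. Per the labels, frozen liver was extracted with trizol and made into libraries with a KAPA mRNA HyperPrep kit, and the submitters' processing notes name STAR 2.7.10a, DESeq2 1.36.0 and build GRCm39. The deposited values are raw read counts per gene and mouse that the authors left unnormalized, with 4 summary lines (25.5% to 42.4% of reads) that were left out of library sizes and tests. The counter's strand setting is not given in the sources used here. Groups came from the genotype and treatment labels. Of 55414 gene identifiers, 31020 (56%) matched a symbol.

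Counts were fitted with edgeR 4.0.16 in R 4.3.3 (TMM scaling, low counts removed with filterByExpr, 1 mean for each of 8 groups, robust quasi-likelihood tests, Benjamini-Hochberg adjustment over 15414 genes, threshold 0.05). "Called" means past that threshold. Log2 CPM of single mice used a prior count of 2. Correlations used deviations from group means with 100000 permutations and adjustment over their family. The covariate of the S100a10 test was its own deviation. Transcript lengths (longest coding transcript in an older GENCODE annotation, used for lengths only, 13848 of the tested genes) gave the length offsets, a loess curve per mouse with span 0.3. Alternatives were DESeq2 1.42.0, its size factors, library totals, other count filters, 1 surrogate variable (sva 3.50.0), single cohorts, 47 mice and leaving out each mouse. The scripts were tested on simulated data. The 120 pairs of mice within groups all differed by more than sampling noise (chi-square per gene from 7.74).

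The genes, lists and markers were chosen with earlier results of these data known. Genes were named by rule as the 10 genes above and, in each list, those highest and lowest in the GDX difference and in the gonadal effect in Intact mice whose log2 CPM averaged 0 or more, with the 5 genes most like S100a10, and other names are marked as chosen after their values were seen. Tf and Adgre1 had no symbol match. Promoters are from RefSeq. The labels do not say whether mice shared litters or cages.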

Additional observations from a re-analysis of the deposited data

Results flagged for a closer look

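Over 79 sets of 6 mice (10 genes in 8 groups, less 1 set at 0 throughout), 11 held a mouse whose distance from the rest exceeded Dixon's critical value for 6 mice. For normally distributed values chance gives about 1 set in 20. The values were not put on a log scale, and sets of different genes share mice, so no excess over chance is read from the count. Values are TMM CPM. No cause of these values was tested.

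XX Te GDX replicate 3 was far above its group for S100a11 (16.14, next 6.216), S100a6 (2.038, next 0.8163) and Anxa2 (64.26, next 22.67). XX Te Intact replicate 2 was far above its group for S100a6 (5.981, next 2.571) and Anxa3 (14.06, next 5.946). The remaining high mice stood out for a single gene each. These were XX Ov Intact replicate 4 for S100a11 (7.915, next 5.101), XY Te Intact replicate 1 for S100a6 (4.074, next 2.373), XY Te GDX replicate 1 for Anxa1 (13.25, next 6.015), XX Ov GDX replicate 4 for Anxa2 (54.21, next 30.59) and XY Ov Intact replicate 2 for Anxa5 (113, next 71.72). XY Ov GDX replicate 1 was far below its group for Anxa2 (21.27, next 26.03). No mouse stood apart in this way for S100a10, S100a4, S100a1 or S100a13.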

How the results depend on the processing

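No called value changed direction under the alternatives run. Among the 9 comparisons and the S100a10 difference between GDX and Intact mice, 75 values under the alternatives stayed within 1.5 times of the reported count or 1 SD of the reported value and 10 moved. The number of the 9 genes called in the gonadal effect in Intact mice was 3, and 1 in a fit of Intact mice alone. In the chromosomal effect in Intact mice it was 1, and 0 with at least 10 counts in every mouse (which removed S100a6), 0 in Intact mice alone and 2 with length offsets. In the chromosomal effect in GDX mice it was 3, and 6 with 1 surrogate variable, 5 in GDX mice alone and 5 with length offsets. In the covariation with S100a10 it was 6 of 8, and 2 with length offsets. The S100a10 difference of -2.17 was -1.294 with 1 surrogate variable and -1.38 with length offsets. Except for the filter, the cause of these moves was not tested.

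Leaving out each of 48 mice in turn gave 2 to 4 calls in the gonadal effect in Intact mice, 0 to 0 in the gonadal effect in GDX mice, 4 to 5 in the chromosomal effect, 0 to 2 in the chromosomal effect in Intact mice, 3 to 4 in that in GDX mice, 0 to 1 for castration minus ovariectomy, 0 to 0 for both other interactions, 5 to 6 in the covariation and an S100a10 difference from -2.224 to -2.091. The 0 for the chromosomal effect in Intact mice came without XY Te Intact replicate 1, the 2 without XX Te Intact replicate 2 (Anxa3) or without XX Te Intact replicate 3, XY Ov Intact replicate 2 or XY Te Intact replicate 5 (Anxa5). The 1 for castration minus ovariectomy came without XX Te Intact replicate 2 (Anxa3, 0.71) or without XX Ov Intact replicate 3 or XY Te Intact replicate 3 (S100a13, 0.75 and 0.81). S100a6 passed in the gonadal effect in Intact mice in 6 of the 48 fits. S100a4 and S100a6 are limited by depth, with at most 7 and 177 reads in a library. No paired analysis was possible because each mouse has an identifier of its own and no number links mice across groups.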
